A study of Mus musculus with 6 samples.

Results

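Hilpda and 9 other genes that govern how macrophages store triglyceride in lipid droplets and release it again were followed in alveolar macrophages, the resident phagocytes of the air spaces of the lung. The 10 genes are Hilpda itself, the droplet coat genes Plin2 and Plin3, the lipase genes Pnpla2, Lipe and Mgll, the lipase regulators Abhd5 and G0s2, and the triglyceride synthesis genes Dgat1 and Dgat2. They are 10 of 23282 rows in the table, and all 10 passed the filter on low counts that left 9963 tested genes. Hilpda was chosen by its measured difference between the genotypes in these libraries, where it was 1 of 5 genes that passed the test across all genes (0.0502% of those tested, with 0.0401% higher and 0.01% lower in Sdha-KO). The other 9 were taken for their place in the pathway, with results of the same comparison already known. The genotype difference of Hilpda is therefore given as a description.

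The tested mice carried floxed Sdha with LysM-Cre (Sdha-KO), so that Cre recombinase, made from the Lyz2 locus, acts in myeloid cells, of which alveolar macrophages are only 1 kind. They were compared with wildtype (WT) mice. The labels do not say whether WT mice carried Cre or floxed alleles, and give no strain, age or sex, nor whether a library came from 1 mouse or a pool. Sdha encodes the flavoprotein of succinate dehydrogenase, which turns succinate into fumarate and feeds electrons into the respiratory chain. The sort kept CD11b negative cells that carried CD45, SiglecF, CD11c and F4/80. There were 3 Sdha-KO and 3 WT libraries, and each of 3 labelled batches held 1 library of each genotype. The labels do not say that the libraries came from separate mice. Xist and Ddx3y, the latter of the Y chromosome, had 0 and 222 counts in WT replicate 1, against 4608 and 0 counts in WT replicate 2. These WT libraries are thus unlikely to be repeats of 1 mouse. Both genes had counts in WT replicate 3 and in Sdha-KO replicates 2 and 3, so a pool of both sexes is possible there. The spread of the libraries may still be partly technical.

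Triglyceride is made from diacylglycerol by the acyltransferases DGAT1 and DGAT2 and is stored in droplets under a coat of perilipins. Lipolysis starts with adipose triglyceride lipase, the product of Pnpla2, and goes on through hormone-sensitive lipase (Lipe) and monoacylglycerol lipase (Mgll). ABHD5 activates adipose triglyceride lipase, and the small proteins HILPDA and G0S2 inhibit it. Hilpda is known as a gene induced by hypoxia and by fatty acids, and alveolar macrophages are known to take up and break down surfactant lipid.

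Total counts lay between 5400160 and 8472907 per library. The batch 1 libraries stood apart, with 5438 genes detected in Sdha-KO replicate 1 and 7893 in WT replicate 1, against 11383 to 13050 in the other 4. Genes with 200 or more counts in every library of batches 2 and 3 numbered 1997, and 162 of them (8.11%) were at 0 in Sdha-KO replicate 1 and 19 (0.951%) in WT replicate 1, so a low value in either library is uncertain. In Sdha-KO replicate 1 the highest total count fell on the fewest genes, so a high value there, that of Hilpda included, is uncertain too. Levels are given in CPM, each count divided by the library's total after scaling with edgeR's TMM composition factors, and a count of 0 allows up to 0.25 to 0.666 CPM (3 counts, counting error only). Sdha itself was at 26.1, 21.0 and 22.8 CPM in Sdha-KO replicates 1 to 3, against 56.0, 65.5 and 72.2 CPM in WT replicates 1 to 3. The Sdha-KO libraries lay below the WT libraries, but the difference did not pass the test (log2 fold change -1.47, edgeR adjusted p = 1.00), and reads near the 3' end may lie outside the deleted exons.

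Of 14 alveolar macrophage markers, 12 to 14 had counts in each library, and their summed level was 7039 to 9049 CPM in Sdha-KO and 7717 to 9323 CPM in WT libraries. Chil3 gave much of this sum, with 3507 to 5385 CPM in Sdha-KO and 4252 to 5424 CPM in WT libraries. Single markers did separate the genotypes: 5 of the 14 had a positive log2 fold change, Siglecf, Krt79, Ear2 and Cidec lay wholly below WT, and Car4 and Olr1 lay wholly above. Among all tested genes, 9.27% lay wholly below WT and 5.04% wholly above. Siglecf, whose protein was used in the sort, had 0, 39.6 and 45.3 CPM in Sdha-KO replicates 1 to 3, against 103, 138 and 132 CPM in WT replicates 1 to 3. None of the 14 passed edgeR's test over all genes (smallest adjusted p = 0.122, for Ear2), and the part of these markers in the results below was not tested.

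Markers of adipocytes, the cell type best known for these lipid genes, summed to 0 to 1.49 CPM in Sdha-KO and 0.764 to 25.4 CPM in WT libraries over 5 genes, with Lep and Cfd at 0 throughout. Alveolar type 2 cell markers, which had 8 of 8 rows with counts in at least 1 library, summed to 27.9 to 308 CPM in Sdha-KO and 49.5 to 184 CPM in WT libraries. Eosinophil markers summed to at most 0.149 CPM in Sdha-KO and 0.222 CPM in WT libraries, with Epx, Prg2 and Prg3 at 0. Levels come from bulk RNA, so fewer cells of a type and less RNA per cell cannot be told apart.

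Hilpda RNA was higher in every Sdha-KO library than in every WT library, by a factor of 8.67 in the fit. It had 14048, 4873 and 4098 counts in Sdha-KO replicates 1 to 3, against 941, 410 and 815 counts in WT replicates 1 to 3. This was 1172, 906 and 611 CPM in Sdha-KO libraries, against 115, 91.0 and 104 CPM in WT libraries. The WT libraries lay close together, and the Sdha-KO libraries were spread over a range in which replicate 1 was highest and replicate 3 lowest. By raw count Hilpda ranked 42nd, 57th and 104th among all rows in Sdha-KO replicates 1 to 3, against 999th, 1164th and 1037th in WT replicates 1 to 3. The rank is taken within a library and uses no scaling between libraries.

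The log2 fold change of Hilpda was 3.12 (SE 0.351). Within batches 1, 2 and 3 the difference in log2(CPM + 1), Sdha-KO minus WT, was 3.33, 3.30 and 2.55. It pointed the same way in every batch, as did 11.4% of tested genes in the direction of Sdha-KO. In edgeR's quasi-likelihood test, 0.0401% of the 9963 tested genes were higher in Sdha-KO at an adjusted p under 0.05, Hilpda among them. Hilpda was not past this threshold with the replicate number as a block, where its log2 fold change was 3.07 (SE 0.249), nor without WT replicate 1, where it was 3.20, nor with a filter of 10 counts in all 3 libraries of a group, where it was 3.13. Without both batch 1 libraries it was 2.97 and past the threshold.

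Markers of other macrophages also separated the genotypes when summed. Those of interstitial macrophages and monocytes (9 genes, Folr2 at 0 in all libraries) summed to 79.5, 137 and 228 CPM in Sdha-KO replicates 1 to 3, against 30.4, 41.1 and 54.1 CPM in WT replicates 1 to 3. All 7 of the 7 tested had a positive log2 fold change, but none passed edgeR's test over all genes. Ccr2 was the only single marker of these whose genotypes did not overlap. It had 79.0, 27.7 and 68.1 CPM in Sdha-KO replicates 1 to 3, against 5.39, 13.1 and 21.5 CPM in WT replicates 1 to 3. Nearly all of the sum in Sdha-KO replicate 1 was thus Ccr2. Such a separation, with Sdha-KO above, was found in 5.04% of tested genes. Dendritic cell markers (8 genes) summed to 5.17, 75.5 and 193 CPM in Sdha-KO libraries, against 20.0, 20.9 and 39.2 CPM in WT libraries, and neutrophil markers (7 genes) to 79.9, 189 and 163 CPM in Sdha-KO libraries, against 92.3, 89.0 and 62.0 CPM in WT libraries. Both overlapped between genotypes. Dissociation and heat shock genes (9 of 9 with counts) summed to 3293 to 5189.7 CPM in Sdha-KO and 2501 to 4369 CPM in WT libraries. In Sdha-KO replicate 1 only 2 of the 9 monocyte and interstitial markers had counts, so their low sum there is uncertain. The part of all these markers in the Hilpda difference was not tested.

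**Figure D1:**
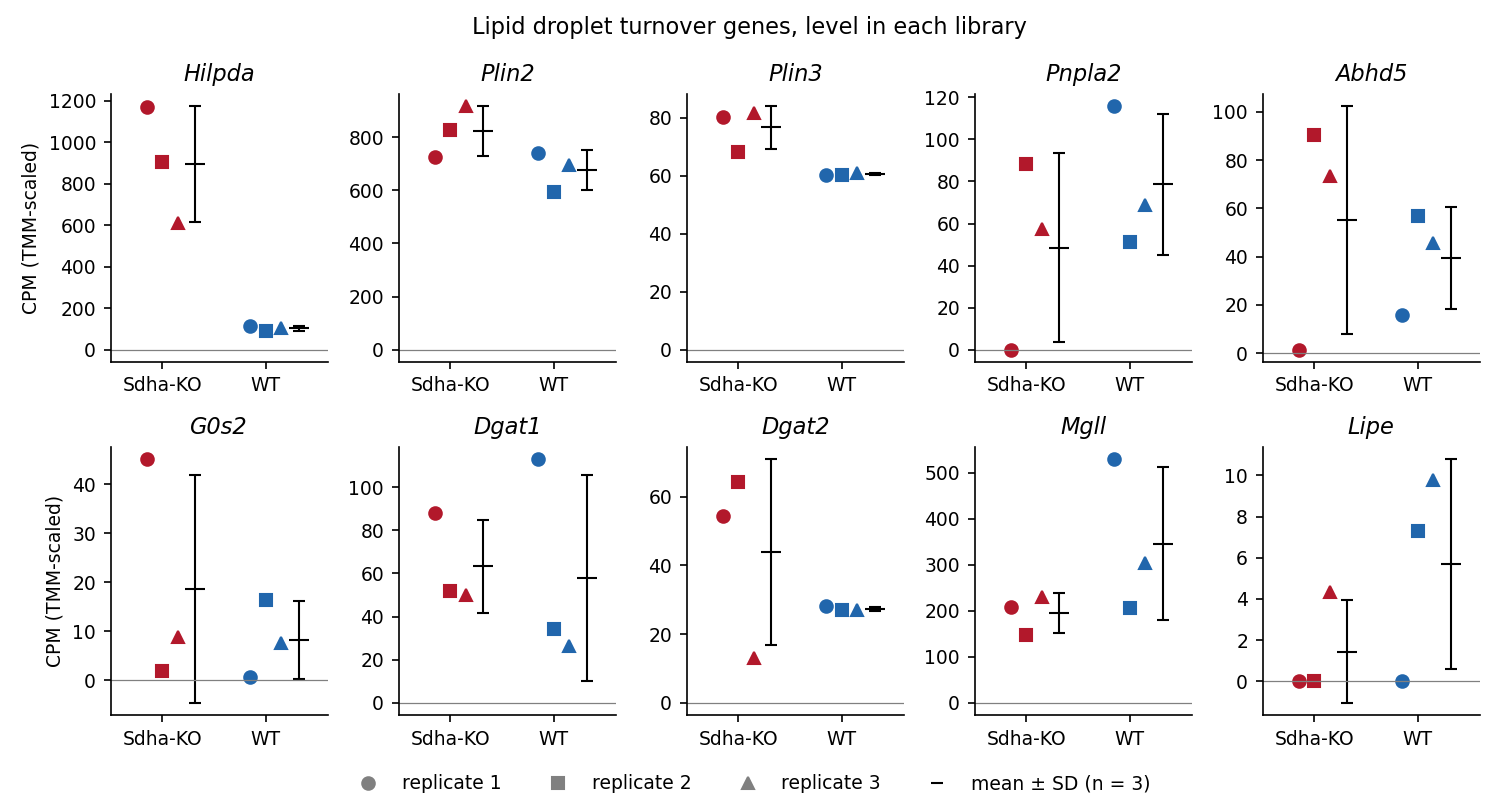
Level in CPM (TMM-scaled, vertical axes different for each gene, with a grey line at 0) of the 10 genes in each of 3 Sdha-KO and 3 WT libraries, with a marker shape for each replicate and bars for mean ± SD. Hilpda lies between 611 and 1172 CPM in Sdha-KO and between 91.0 and 115 CPM in WT libraries, while 8 of the other 9 genes overlap between genotypes.

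Hilpda spans chromosome 6 from 29272488 to 29275446 on the plus strand (mm10, GENCODE M21), a protein-coding gene whose exons overlap no other annotated gene. RefSeq places a pair of transcription starts there, and the promoter window of the downstream one is shown because it holds more copies of the hypoxia-inducible factor core, A or G followed by CGTG, than the window of the upstream start. Plin2 is shown beside it as the most abundant of the other genes. Windows run from 250 bases before the start to 50 bases from it (RefSeq, GRCm38.p6), 5' to 3' on the gene's strand, and capitals mark ACGTG or GCGTG on either strand.
Hilpda, chr6:29272376-29272675, plus strand: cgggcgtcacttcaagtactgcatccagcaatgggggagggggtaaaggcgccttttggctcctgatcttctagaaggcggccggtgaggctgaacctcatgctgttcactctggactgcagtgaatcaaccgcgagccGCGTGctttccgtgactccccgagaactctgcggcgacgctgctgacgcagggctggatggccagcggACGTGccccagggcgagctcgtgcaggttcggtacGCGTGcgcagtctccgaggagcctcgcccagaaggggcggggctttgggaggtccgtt
Plin2, chr4:86670010-86670309, minus strand: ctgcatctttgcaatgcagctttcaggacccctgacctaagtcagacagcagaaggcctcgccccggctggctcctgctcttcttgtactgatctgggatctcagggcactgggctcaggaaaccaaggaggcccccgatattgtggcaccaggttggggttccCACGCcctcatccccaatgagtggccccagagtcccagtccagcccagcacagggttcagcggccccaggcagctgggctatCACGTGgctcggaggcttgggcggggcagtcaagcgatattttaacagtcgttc
The Hilpda window has ACGTG 43 bases before the start and GCGTG 111 and 8 bases before it. The window of the upstream Hilpda start (chr6:29272238-29272537) overlaps it and holds 1 of these, a GCGTG. In Plin2, the capitals near the start spell CACGTG, an E-box that holds ACGTG on both strands, and a GCGTG lies on the other strand 86 bases before the start. Such cores are common: 43.8% of 32851 mouse promoter windows held ACGTG or GCGTG on either strand, and 19.6% held ACGTG. Windows were found for 8 of the 10 genes, and Hilpda did not hold the most copies. Mgll held 2 ACGTG and 2 GCGTG in its first window and 1 ACGTG and 6 GCGTG in its second, and Lipe held 2 ACGTG and 1 GCGTG in its first window and none in its second. The 2 ACGTG in each of these first windows are both strands of 1 CACGTG. G0s2 and Abhd5 held 1 GCGTG each, and the windows of Pnpla2 and Plin3 held neither form.

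G0s2, the other small inhibitor of adipose triglyceride lipase, showed no separation by genotype. It had 542, 10 and 59 counts in Sdha-KO replicates 1 to 3, against 5, 74 and 59 counts in WT replicates 1 to 3. In CPM these were 45.2, 1.86 and 8.79 in Sdha-KO libraries, against 0.613, 16.4 and 7.51 in WT libraries. The genotypes overlapped, and the high Sdha-KO value came from replicate 1 alone. The log2 fold change was 1.19 (SE 2.00, edgeR adjusted p = 1.00), and it turned to -0.61 without Sdha-KO replicate 1 and to -1.15 without both batch 1 libraries.

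Pnpla2, which encodes the lipase that HILPDA inhibits, had 0, 475 and 384 counts in Sdha-KO replicates 1 to 3, against 943, 230 and 540 counts in WT replicates 1 to 3. As CPM this was 0, 88.3 and 57.2 in Sdha-KO libraries, against 116, 51.0 and 68.8 in WT libraries. The batch 1 libraries held both extremes, and the other 4 libraries overlapped. The 0 in Sdha-KO replicate 1 allows 0.25 CPM by counting error alone. It does not bound the true level, since 8.11% of the 1997 well-covered genes were at 0 there. With this 0 the log2 fold change was -0.69 (SE 1.70, edgeR adjusted p = 1.00), and without both batch 1 libraries it was 0.29 (SE 0.362, adjusted p = 0.904). The sign of the difference thus rested on the batch 1 libraries.

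The level of the inhibitor gene was also set against that of the lipase gene inside each library. There were 10.3 and 10.7 Hilpda counts per Pnpla2 count in Sdha-KO replicates 2 and 3, against 0.998, 1.78 and 1.51 in WT replicates 1 to 3. Sdha-KO replicate 1 has no ratio because Pnpla2 was at 0 there. Since Hilpda was chosen for its difference, the ratio carries that choice. The difference of the mean log2 ratio was 2.91 over 2 Sdha-KO and 3 WT libraries, and 2.67 to 3.09 when each library was left out in turn. Reads of this kit come from the 3' ends, so the count of a gene does not grow with its length, but 3' ends differ in how well they are captured and a ratio of 1 is not a ratio of equal molecule numbers.

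Abhd5, whose product activates the Pnpla2 lipase, had 17, 487 and 494 counts in Sdha-KO replicates 1 to 3, against 128, 256 and 360 counts in WT replicates 1 to 3. Both batch 1 libraries were low (1.42 CPM in Sdha-KO and 15.7 CPM in WT), and in batches 2 and 3 the Sdha-KO libraries had 90.6 and 73.6 CPM, against 56.8 and 45.8 CPM in WT libraries. The log2 fold change was 0.48 (SE 1.14, edgeR adjusted p = 1.00), and 0.69 (SE 0.327, adjusted p = 0.532) without both batch 1 libraries. It was -0.48 with the replicate block. Exons of Abhd5 overlap those of a gene on the other strand, A730085K08Rik, and the use of strand in counting is not given in the sources used here, so the count is uncertain.

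Mgll, which frees the last fatty acid from monoacylglycerol, was the member after Hilpda with the smallest unadjusted p. It had 2489, 796 and 1551 counts in Sdha-KO replicates 1 to 3, against 4325, 929 and 2376 counts in WT replicates 1 to 3. As CPM this was 208, 148 and 231 in Sdha-KO libraries, against 530, 206 and 303 in WT libraries. The Sdha-KO library was the lower one in each batch, but WT replicate 2 lay among the Sdha-KO libraries. Its log2 fold change of -0.82 (SE 0.406) did not pass (edgeR adjusted p = 1.00). A lower value in all 3 batches was common, in 19.9% of tested genes. Exons of Mgll overlap those of Gm26588 on the other strand.

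Relative to Plin2 in the same library, Mgll had 0.286, 0.179 and 0.252 counts per Plin2 count in Sdha-KO replicates 1 to 3, against 0.716, 0.347 and 0.434 in WT replicates 1 to 3. This ratio, chosen after its values were seen, did not overlap between genotypes and averaged 0.239 ± 0.0545 in Sdha-KO and 0.499 ± 0.193 in WT libraries (SD, n = 3 each). It is a description and was not tested.

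Lipe was close to the limit of detection. It had 0, 0 and 29 counts in Sdha-KO replicates 1 to 3, against 0, 33 and 77 counts in WT replicates 1 to 3. In CPM the libraries with counts had 4.32 in Sdha-KO replicate 3, against 7.32 and 9.80 in WT replicates 2 and 3. The fitted log2 fold change of -1.98 (SE 2.88, edgeR adjusted p = 1.00) rests on these few reads, and exons of Lipe overlap those of 4732471J01Rik on the other strand. A difference of Lipe was not detectable at this depth.

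Plin2, the main perilipin of cells other than adipocytes, was the most abundant of the other members. It had 8714, 4445 and 6151 counts in Sdha-KO replicates 1 to 3, against 6037, 2676 and 5472 counts in WT replicates 1 to 3. These were 727, 827 and 917 CPM in Sdha-KO libraries, against 739.8, 594 and 697 CPM in WT libraries. Only Sdha-KO replicate 1 lay within the WT range. The log2 fold change was 0.28 (SE 0.271, edgeR adjusted p = 1.00), and 0.45 (SE 0.204, adjusted p = 0.513) without both batch 1 libraries. By raw count Plin2 ranked 79th, 75th and 56th in Sdha-KO replicates 1 to 3, against 79th, 85th and 72nd in WT replicates 1 to 3.

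Plin3, a perilipin that moves onto droplets from the cytosol, was the other member whose genotypes did not overlap. It had 80.4, 68.2 and 81.7 CPM in Sdha-KO replicates 1 to 3, against 60.4, 60.4 and 61.0 CPM in WT replicates 1 to 3. All 3 Sdha-KO libraries were higher, by a small margin (log2 fold change 0.34, SE 0.551, edgeR adjusted p = 1.00). Such a separation was found, with Sdha-KO above, in 5.04% of tested genes. The proportion of the coat genes overlapped between genotypes, with 9.05, 12.1 and 11.2 Plin2 counts per Plin3 count in Sdha-KO replicates 1 to 3, against 12.2, 9.84 and 11.4 in WT replicates 1 to 3. Hilpda had 1.61, 1.10 and 0.666 counts per Plin2 count in Sdha-KO libraries, against 0.156, 0.153 and 0.149 in WT libraries.

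The enzymes that make triglyceride showed no difference that passed the test. Dgat1, of the endoplasmic reticulum, had 1056, 279 and 334 counts in Sdha-KO replicates 1 to 3, against 922, 155 and 206 counts in WT replicates 1 to 3. In CPM this was 88.1, 51.9 and 49.8 in Sdha-KO libraries, against 113, 34.4 and 26.2 in WT libraries. Both batch 1 libraries were highest in their genotype, and within batches 2 and 3 the Sdha-KO library was above its WT partner. For Dgat1 the log2 fold change was 0.13 (SE 0.727, edgeR adjusted p = 1.00), and 0.76 (SE 0.392, adjusted p = 0.575) without both batch 1 libraries. It was -0.19 without Sdha-KO replicate 1.

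Dgat2, which is unrelated to Dgat1 in sequence and acts at the reticulum and the droplet, had 651, 345 and 88 counts in Sdha-KO replicates 1 to 3, against 229, 121 and 212 counts in WT replicates 1 to 3. The WT libraries were nearly equal at 28.1, 26.9 and 27.0 CPM, while the Sdha-KO libraries had 54.3, 64.2 and 13.1 CPM. Sdha-KO replicates 1 and 2 lay above and replicate 3 below all WT libraries. Its log2 fold change was 0.68 (SE 1.05, edgeR adjusted p = 1.00). Without Sdha-KO replicate 3 it was 1.11.

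**Figure D2:**
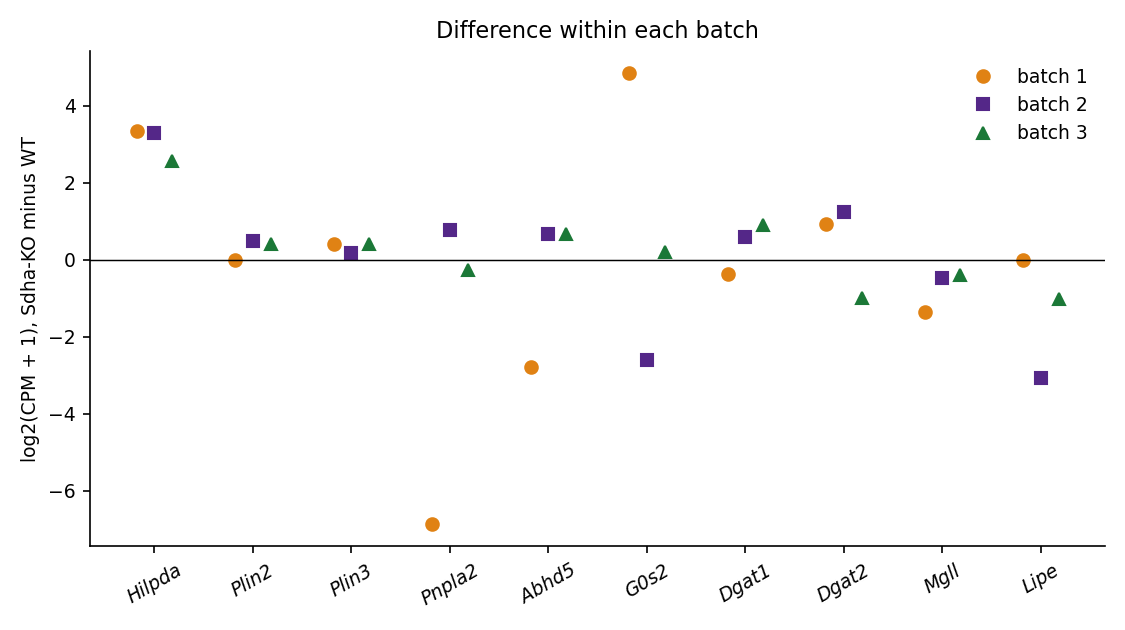
Difference in log2(CPM + 1), Sdha-KO minus WT, for each of the 10 genes within batches 1, 2 and 3 (1 library of each genotype per batch). Hilpda is at 3.33, 3.30 and 2.55, while Pnpla2 (-6.86, 0.78 and -0.26) and G0s2 (4.84, -2.61 and 0.20) change sign between batches.

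The summed level of the 9 members other than Hilpda overlapped between genotypes. Their CPM summed to 1204, 1339.7 and 1437 in Sdha-KO replicates 1 to 3, against 1603, 1053 and 1245 in WT replicates 1 to 3, or 1327 ± 117 in Sdha-KO and 1301 ± 279 in WT libraries (SD, n = 3 each). None of the 9 passed edgeR's test over all genes, 0 were under an unadjusted p of 0.05, and 0 passed with DESeq2 or limma-voom (0 and 2 at an unadjusted p under 0.05). Over all 9963 genes, edgeR called 0.0502%, DESeq2 0.211% and limma-voom 0.793%, and 2.64% were under an unadjusted p of 0.05 with edgeR. The unadjusted share is not given for DESeq2 or limma-voom. The median log2 fold change of the 9 members was 0.28, with 6 positive and 3 negative, beside a median of -0.13 over all tested genes. SEs of up to 2.88 on the log2 scale mean that sizeable differences in Pnpla2, G0s2 or Lipe could have gone unseen.

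Hilpda made up 49.3%, 40.3% and 29.8% of the counts of the 10 genes in Sdha-KO replicates 1 to 3, against 6.71%, 7.95% and 7.69% in WT replicates 1 to 3. The means were 39.8% ± 9.76 in Sdha-KO and 7.45% ± 0.655 in WT libraries (SD, n = 3 each). Plin2 was the gene with the most counts of the 10 in every WT library and in Sdha-KO replicate 3, and Hilpda was in Sdha-KO replicates 1 and 2. Leaving Hilpda out, Plin2 held 60.4%, 61.7% and 63.8% of the remaining counts in Sdha-KO libraries, against 46.1%, 56.4% and 55.9% in WT libraries, and Mgll held 17.2%, 11.0% and 16.1% in Sdha-KO libraries, against 33.1%, 19.6% and 24.3% in WT libraries. These shares add to a whole, so a higher share of 1 gene lowers the others.

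**Figure D3:**
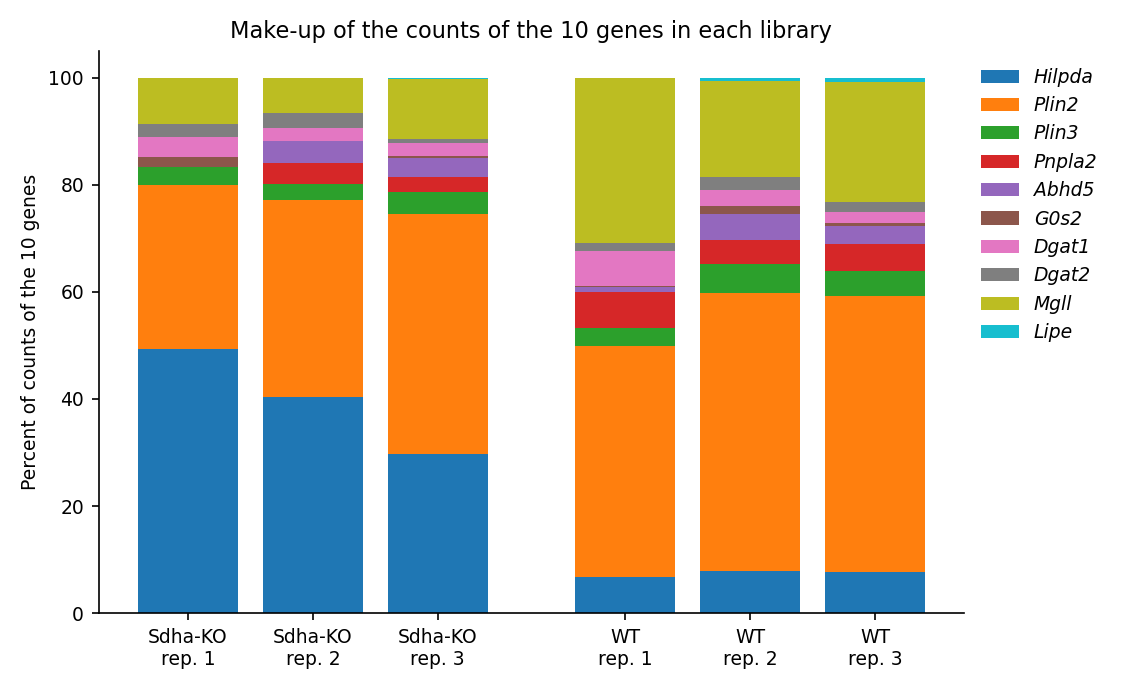
Share in percent of the counts of the 10 genes that fell on each gene, in Sdha-KO replicates 1 to 3 and WT replicates 1 to 3 (stacked bars, raw counts). Hilpda, the lowest segment, takes 29.8% to 49.3% in Sdha-KO and 6.71% to 7.95% in WT libraries.

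Other genes of lipid storage were examined in 6 lists with 83 rows in the table, of which 54 were tested. None passed edgeR's test at an adjusted p under 0.05, 5 were under an unadjusted p of 0.05, and DESeq2 and limma-voom called 0 each (3 and 8 at an unadjusted p under 0.05). Over all tested genes, 2.64% were under an unadjusted p of 0.05 with edgeR, and that share is not given for DESeq2 or limma-voom. Of the 54, 25 had a positive and 29 a negative log2 fold change, with a median of -0.10 beside -0.13 over all tested genes. Groups did not overlap in 4 with Sdha-KO above and 7 with Sdha-KO below, against 5.04% and 9.27% of all tested genes.

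Among 10 tested genes of droplet coat and structure (4 positive, median log2 fold change -0.20), 2 did not overlap between genotypes. These were Cidec and Hsd17b11, both lower in Sdha-KO, as were 9.27% of all tested genes without overlap. Cidec encodes a protein that fuses droplets and is also a marker of alveolar macrophages. It had 69.8, 48.3 and 24.1 CPM in Sdha-KO replicates 1 to 3, against 99.1, 140.5 and 134 CPM in WT replicates 1 to 3 (log2 fold change -1.39, SE 0.553, edgeR adjusted p = 1.00). Hsd17b11, a droplet-associated dehydrogenase and the most abundant of the list, had 75.0 ± 16.7 CPM in Sdha-KO and 106 ± 7.39 CPM in WT libraries (SD, n = 3 each). The adipocyte perilipin Plin1 and the muscle perilipin Plin5 had at most 8 and 2 counts in any library.

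The 13 tested genes of acyl-CoA and glycerolipid synthesis had a median of -0.22, with 6 positive. Agpat6, an older symbol of the glycerol phosphate acyltransferase gene Gpat4, had 184, 28.1 and 23.5 CPM in Sdha-KO replicates 1 to 3, against 0, 6.44 and 14.1 CPM in WT replicates 1 to 3. Its groups did not overlap, but much of the difference lay in batch 1 (log2 fold change 3.52, SE 1.6, edgeR adjusted p = 1.00). Lpin2, a phosphatidate phosphatase gene, had 0, 33.5 and 37.4 CPM in Sdha-KO libraries, against 132, 47.5 and 70.5 CPM in WT libraries (log2 fold change -1.82, SE 1.58, edgeR adjusted p = 1.00). Its relative Lpin1, the most abundant of the list, had 60.0 ± 17.7 CPM in Sdha-KO and 58.8 ± 21.6 CPM in WT libraries (SD, n = 3 each).

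Among 8 tested genes of fatty acid uptake and binding (5 positive, median 0.32), the extracellular lipase gene Lpl was the most abundant, with 954, 1471 and 1109 CPM in Sdha-KO replicates 1 to 3, against 921, 1129 and 999 CPM in WT replicates 1 to 3. Its groups overlapped. Cd36, a scavenger receptor that takes up fatty acids, had 126, 238 and 297 CPM in Sdha-KO libraries, against 523, 343 and 351 CPM in WT libraries (log2 fold change -0.88, SE 0.387, edgeR adjusted p = 1.00). The fatty acid binding protein gene Fabp5 had 364, 221 and 413 CPM in Sdha-KO libraries, against 178, 203 and 181 CPM in WT libraries (log2 fold change 0.83, SE 0.357, edgeR adjusted p = 1.00). Neither overlapped between genotypes and neither passed.

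Of 7 tested hydrolase genes, 6 were negative (median -0.93). Nceh1, a cholesteryl ester hydrolase, had 54.9, 454 and 249 CPM in Sdha-KO replicates 1 to 3, against 254, 741 and 444 CPM in WT replicates 1 to 3, lower in each batch but overlapping. Ddhd2, a triglyceride hydrolase best known in brain, had no count in Sdha-KO replicate 1 and 27.3 and 25.9 CPM in replicates 2 and 3, against 46.8, 33.5 and 35.8 CPM in WT libraries (edgeR adjusted p = 1.00). An exon of Ddhd2 overlaps Gm17484. Soat1, the 1 tested sterol acyltransferase gene, had 196 ± 31.9 CPM in Sdha-KO and 153 ± 49.7 CPM in WT libraries (SD, n = 3 each).

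Of 15 tested transcription factor genes of lipid and oxygen sensing, 8 were positive (median 0.05). Nr1h3, which encodes the oxysterol receptor LXR alpha, had 144, 81.1 and 41.1 CPM in Sdha-KO replicates 1 to 3, against 17.0, 29.5 and 23.8 CPM in WT replicates 1 to 3. The groups did not overlap (log2 fold change 1.92, SE 0.738, edgeR adjusted p = 1.00), and exons of Nr1h3 overlap those of Gm13783. Tfe3, a lysosomal gene regulator, had 2.50, 9.11 and 14.2 CPM in Sdha-KO libraries, against 44.0, 15.3 and 18.3 CPM in WT libraries (log2 fold change -1.59, SE 1.71, edgeR adjusted p = 1.00). Cebpb, the most abundant, had 407 ± 38.0 CPM in Sdha-KO and 378 ± 77.6 CPM in WT libraries (SD, n = 3 each), and its exons overlap those of Tmem189.

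Without both batch 1 libraries and with the replicate block, which leaves 1 residual degree of freedom, 4 of these genes passed edgeR's test: Cidec (log2 fold change -1.99, adjusted p = 0.000811), Fabp1 (-2.57, adjusted p = 0.000773), Nceh1 (-0.76, adjusted p = 0.0252) and Fabp4 (1.72, adjusted p = 0.00086). In that setting 3.01% of 10757 genes passed. Fabp4 encodes a fatty acid binding protein that marks alveolar macrophages. Without the block, in the same 4 libraries, 0 of them passed. The genotypes in these 4 libraries also differed in sex-linked RNA, with Xist at 498 and 822 counts in Sdha-KO replicates 2 and 3, against 4608 and 6055 counts in WT replicates 2 and 3. Ddx3y, of the Y chromosome, had 354 and 432 counts in those Sdha-KO libraries, against 0 and 143 counts in those WT libraries. In batch 1 both genes ran the other way. Xist had 2683 counts in Sdha-KO replicate 1 and 0 in WT replicate 1, and Ddx3y had 0 and 222 counts there. The part of sex in these 4 calls and in the Hilpda difference was not tested.

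**Figure D4:**
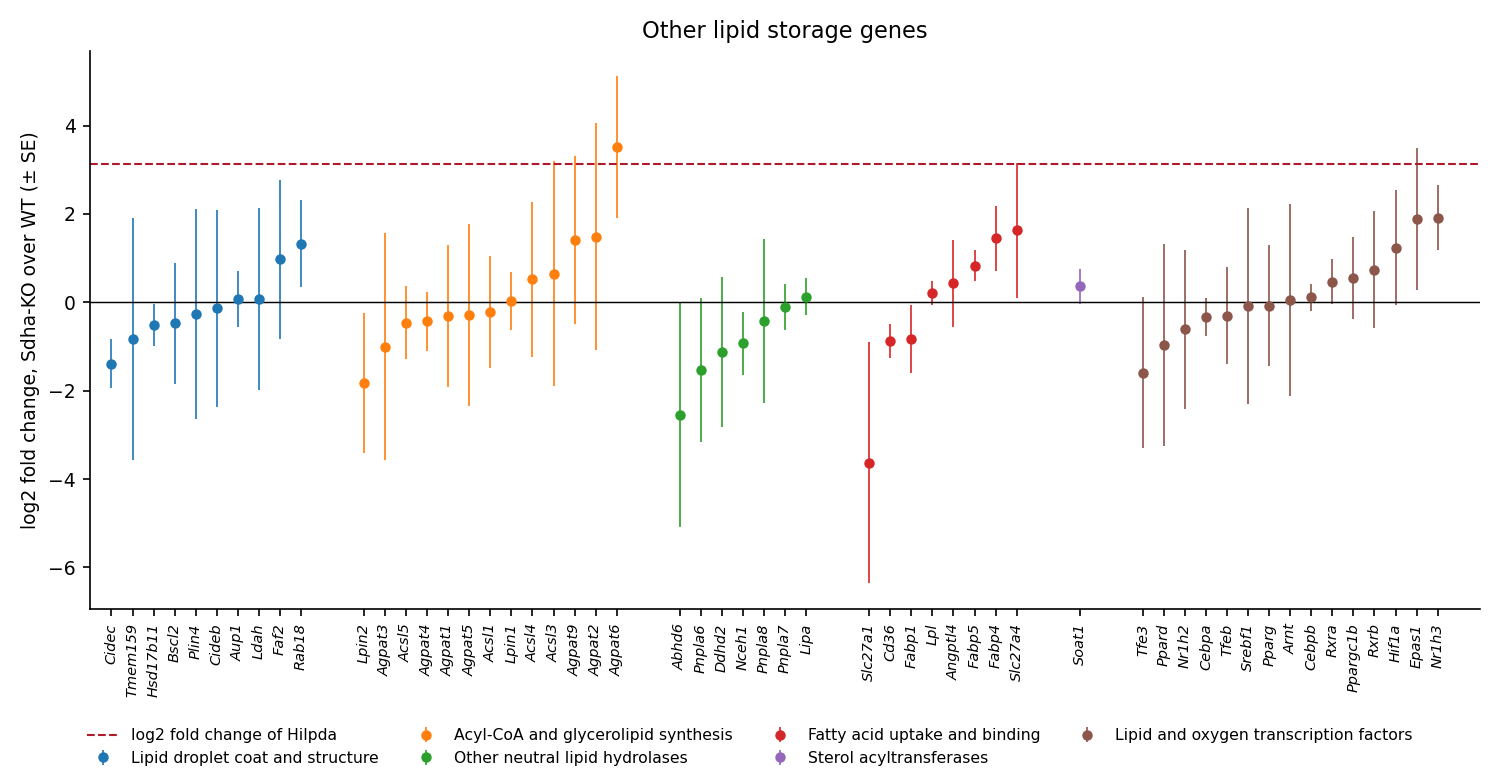
Log2 fold change, Sdha-KO over WT, with its SE from edgeR for the 54 tested genes of 6 lipid storage lists, in order within each list, and a dashed line at the value of Hilpda (3.12). The values run on both sides of 0, and Agpat6 (3.52, SE 1.6) is the 1 gene above the line.

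The genes whose levels ran most like those of Hilpda over the 6 libraries were Mthfd2, Cdkn1a, Pgk1, Ctsk and Rpl23, out of 6360 candidates with a mean of at least 10 CPM. Pearson's r of log2(CPM + 1) was 0.995, 0.995, 0.987, 0.986 and 0.983 in that order. The libraries fall into 2 genotypes and share their scaling, so r here mostly says that a gene separates the genotypes, with the WT libraries close together. Mthfd2, a mitochondrial folate enzyme, had 112 ± 19.4 CPM in Sdha-KO and 21.1 ± 1.81 CPM in WT libraries. Cdkn1a, a cell cycle inhibitor, had 673 ± 127 CPM in Sdha-KO and 247 ± 20.6 CPM in WT libraries. Pgk1, a glycolytic kinase, had 41.9 ± 14.4 CPM in Sdha-KO and 8.61 ± 0.497 CPM in WT libraries. Ctsk, a cysteine protease, had 437 ± 170.4 CPM in Sdha-KO and 82.5 ± 15.1 CPM in WT libraries, and the ribosomal protein gene Rpl23 had 929 ± 58.1 CPM in Sdha-KO and 525 ± 11.4 CPM in WT libraries (SD, n = 3 for each value). The differences of these 5 genes did not pass edgeR's test over all genes (smallest adjusted p = 0.0706, for Ctsk). None of the other 9 members was among the 5 genes. With another scaling, 3 of the 5 stayed (library totals), and 1, Rpl23, stayed without both batch 1 libraries. Exons of Cdkn1a overlap those of another annotated gene.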

How the data were processed

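RNA of 6 libraries of sorted alveolar macrophages (3 Sdha-KO, 3 WT) was made with a QuantSeq 3' kit. The authors deposited raw counts per gene. The submitters' processing notes name Bowtie2, bedtools and mm10, and no role or version is given in the sources used here. The filter (edgeR filterByExpr, minimum count 10) left 9963 of 23282 rows. Counts were scaled by TMM and tested by edgeR 4.0.16's robust quasi-likelihood test (R 4.3.3), with Benjamini-Hochberg adjustment over all tested rows and a threshold of 0.05. The biological coefficient of variation was 1.40. The script was run on simulated data with a lower spread than these libraries have. That run does not show how the test behaves at the spread seen here.

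SEs were derived from the log2 fold change and the F value. CPM is TMM-scaled, and logs used a pseudocount of 1. The genes followed and the lists were chosen with earlier results of these data known. The text names all 10 members, and from each list the most abundant gene and those with the largest change in each direction whose groups do not overlap and whose higher group averages at least 10 CPM. It also names the 5 genes best correlated with Hilpda. Fabp1 and Fabp4 were named after their values were seen.

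The replicate number marks a batch in the labels and so pairs the libraries. Deviations from group means correlated at 0.147, 0.135 and 0.103 for the same number and at -0.149 to 0.0874 otherwise. Alternatives were a replicate block, other scalings and filters, DESeq2 1.42.0, limma-voom 3.58.1 and leaving out libraries. Intervals and limits from counts cover counting error only.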

Additional observations from a re-analysis of the deposited data

How the results depend on the processing

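Hilpda was chosen by its difference in these same libraries, so the alternatives are a description and give no separate support. Hilpda kept its direction in all 16 alternatives (log2 fold change 2.88 to 3.45) and passed in 13. It did not pass with at least 10 counts in all 3 libraries of a group (3.13, adjusted p = 0.0853), with the replicate block (3.07, adjusted p = 0.194) or without WT replicate 1 (3.20, adjusted p = 0.091). In those 3 settings the number of members called was 0, against 1 as reported, and leaving out each library in turn gave 0 to 1 (Hilpda log2 fold change 2.88 to 3.33). Without both batch 1 libraries and with the replicate block, 4 pathway genes passed, against 0 as reported. Over all 6 libraries, the replicate block also ended the calls of the other 4 genes of the 5 called as reported.

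Signs turned for Abhd5 (-1.95 by limma-voom, -0.48 with the block, and -0.06 without Sdha-KO replicate 2, at most 1.06 without Sdha-KO replicate 1), Dgat1 (-0.14 without WT replicate 2, -0.22 without WT replicate 3, -0.19 without Sdha-KO replicate 1, at most 1.06 without WT replicate 1), G0s2 (-0.61 without Sdha-KO replicate 1, at most 2.18 without WT replicate 2, -1.15 without both batch 1 libraries, -1.40 with the block as well) and Pnpla2 (0.29 without both batch 1 libraries, 0.27 with the block as well). The cause was not tested. Plin2 (0.19 to 0.53), Plin3 (0.29 to 0.63), Dgat2 (0.13 to 1.11) and Mgll (-1.10 to -0.38) kept their direction in the 16 alternatives, and no member other than Hilpda passed in any. The number of genes called overall was 5 as reported, 9 with library totals, 48 with no filter, 21 by DESeq2, 79 by limma-voom, 0 with the block, 0 with the stricter filter, 27 without both batch 1 libraries, 324 with the block as well, and 0 to 13 when each library was left out. Over all tested genes, log2 fold changes had a median of -0.13 as reported, 0.05 with library totals, -0.65 by limma-voom and -0.48 with the block. Counts of 0 in Sdha-KO replicate 1 limit what can be said of Pnpla2 and Lipe.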

Other observations

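Epas1, which encodes the hypoxia-inducible factor subunit HIF-2 alpha and falls outside the rule for named genes, had 36.0, 41.1 and 25.8 CPM in Sdha-KO replicates 1 to 3, against 1.10, 7.99 and 18.8 CPM in WT replicates 1 to 3. It was looked at because HIF induces Hilpda. The groups did not overlap, but the difference did not pass (log2 fold change 1.88, SE 1.61, edgeR adjusted p = 1.00). Such a separation, with Sdha-KO above, was found in 5.04% of tested genes. The difference of Epas1 in log2(CPM + 1), Sdha-KO minus WT, was largest in batch 1, at 4.14, 2.23 and 0.43 in batches 1 to 3. Hif1a had a log2 fold change of 1.24 and Pparg, which encodes the fatty acid receptor that alveolar macrophages need, of -0.08 (edgeR adjusted p = 1.00 for both). Both signs came from batch 1. Within batches 1, 2 and 3 the difference in log2(CPM + 1), Sdha-KO minus WT, was 5.88, -0.16 and -0.80 for Hif1a and -5.39, 0.19 and 0.62 for Pparg. Exons of Hif1a overlap those of 2 other annotated genes.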
